A study of Homo sapiens with 6 samples.

Results

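Vimentin and 7 related cytoplasmic intermediate filament genes that are not keratins were examined in 6 RNA sequencing libraries. The labels name a colorectal cancer cell line. The 8 genes were taken by name from a table of 58735 genes, and each name matched a single row. They were VIM, DES, NES, SYNM, INA, NEFH, NEFL and NEFM. All libraries are labelled SW480, a line derived from a human colorectal adenocarcinoma, grown in Leibovitz's L-15 medium with fetal bovine serum and no CO2. The labels give 3 of them the genotype DDX39B overexpression and the other 3 the genotype WT with a title that marks them as controls. Neither the vector or promoter used for overexpression, nor whether a clone or a pool was grown, nor whether the libraries of a group came from separate cultures is given in the sources used here. P-values therefore measure the spread between these libraries, which may be technical.

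DDX39B encodes an RNA helicase that acts in splicing and mRNA export, and its level went against the labels. It measured 15.02, 13.9 and 14.03 FPKM (reads scaled by gene length and by library size) in the libraries labelled DDX39B overexpression, against 39.3, 34.6 and 41.9 FPKM in those labelled control. The groups did not overlap, and limma gave a log2 fold change of -1.37 (SE 0.079) with an adjusted p of 6.93e-06. For this reason the libraries are named by their label, overexpression-labelled or control-labelled, and directions are those of the labels. Were the labels exchanged, every direction given here would turn round, and whether they are, or whether reads of a transgene were left out of the gene's value, was not tested. Whole reads worked out from the values summed to 16963075 to 17463697 per library. The chi-square per gene between libraries of a group was 2.09 to 2.43 among the overexpression-labelled and 7.36 to 32.9 among the control-labelled ones, where sampling noise alone gives about 1, and the largest values involved control-labelled replicate 3. Most genes differed: of 13972 genes that averaged 1 FPKM or more, 76.8% had a limma adjusted p under 0.05, with 37.5% higher and 39.3% lower under the overexpression label. For 80.1% of them no value of one group reached into the other. A difference in any single filament gene stands against that background.

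Of 12 markers of colorectal epithelium, 6 were tested and those 6 were higher under the overexpression label, where 37.5% of all tested genes were higher. Of the 6, CDH1, CDX2, CLDN3 and VIL1 reached the mean of 1 FPKM through the overexpression-labelled libraries alone and had to differ, so the count is a description. EPCAM, an epithelial adhesion molecule, measured 171 ± 3.6 FPKM in overexpression-labelled and 2.72 ± 0.67 FPKM in control-labelled libraries (SD, n = 3 each), a 63.0-fold difference. CLDN3, a tight junction gene, was 145-fold and CDH1, the E-cadherin gene, 38.7-fold higher. CDX2, the intestinal homeobox factor, had 1059 reads under the overexpression label and 0 under the control label. CLDN7, another tight junction gene, was abundant in both groups, at 84.9 ± 1.0 FPKM under the overexpression label and 37.2 ± 4.1 FPKM under the control label. CDX1 had 0 reads in all 6 libraries, and the adhesion genes CEACAM5 and CEACAM6 had at most 5 reads in a group. Apart from CLDN7, the listed markers were thus at or below 2.72 FPKM on average in the control-labelled libraries. In bulk libraries, fewer cells of a type and less RNA per cell cannot be told apart. The markers were listed to check the cell line label, and most were low or without reads under the control label. Between libraries of different groups the chi-square per gene was 247 to 276. Whether the libraries of both groups come from the labelled line was not tested.

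Intermediate filaments are rope-like polymers built from proteins that share a coiled-coil rod, and cells choose their filament genes by lineage. Epithelial cells rely on paired type I and type II keratins. Vimentin (VIM) is the type III filament protein of mesenchymal cells, and carcinoma cells often gain it beside their keratins in epithelial-to-mesenchymal transition. Desmin (DES) is the type III protein of muscle. The type IV group holds the neurofilament triplet (NEFL, NEFM and NEFH) and alpha-internexin (INA) of neurons, nestin (NES) of progenitor cells, and synemin (SYNM), a large partner protein. Nestin and synemin do not form filaments alone and are built into filaments of vimentin or another partner.

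The genes lie on 6 chromosomes: VIM (ENSG00000026025) and INA (ENSG00000148798) on chromosome 10, NES (ENSG00000132688) on 1, DES (ENSG00000175084) on 2, NEFL (ENSG00000277586) and NEFM (ENSG00000104722) as neighbours on 8, SYNM (ENSG00000182253) on 15 and NEFH (ENSG00000100285) on 22. VIM spans 17228259 to 17237593 and INA 103277163 to 103290351, both on the plus strand of GRCh38. NES spans 156668763 to 156677397 on the minus strand, and SYNM 99098217 to 99135593, DES 219418377 to 219426739 and NEFH 29480230 to 29491390 on the plus strand. In the GENCODE release 29 annotation the principal coding transcript has 10 exons for VIM and 9 for DES, against 3 or 4 for each of the 6 type IV genes.

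NES, SYNM and INA are shown by the 250 bases before and 50 bases after the start that RefSeq annotates on GRCh38.p14, because they carry the largest differences. Promoters were found there for 4 of the 8 members. Capitals mark a GC box, the site of Sp1-type factors (GGGCGG or its complement CCGCCC), and the E-box bound by ZEB1 and the SNAI family (CAGGTG or its complement CACCTG). Both strands were searched, overlapping matches of a motif were counted separately, and the 2 motifs did not overlap each other.
NES, chr1:156677358-156677657, minus strand: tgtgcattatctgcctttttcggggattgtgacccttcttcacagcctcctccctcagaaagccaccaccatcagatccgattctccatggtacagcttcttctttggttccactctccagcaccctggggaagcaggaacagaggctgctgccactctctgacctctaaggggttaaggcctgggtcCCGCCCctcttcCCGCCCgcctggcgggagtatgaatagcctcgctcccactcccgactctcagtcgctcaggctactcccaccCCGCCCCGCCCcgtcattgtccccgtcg
SYNM, chr15:99104830-99105129, plus strand: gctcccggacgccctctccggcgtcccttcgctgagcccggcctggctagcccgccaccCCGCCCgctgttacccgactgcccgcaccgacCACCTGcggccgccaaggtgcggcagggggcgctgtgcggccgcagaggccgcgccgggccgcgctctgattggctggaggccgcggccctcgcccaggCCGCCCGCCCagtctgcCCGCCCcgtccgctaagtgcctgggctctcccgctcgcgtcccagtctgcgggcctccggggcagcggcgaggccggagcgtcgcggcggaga
INA, chr10:103276888-103277187, plus strand: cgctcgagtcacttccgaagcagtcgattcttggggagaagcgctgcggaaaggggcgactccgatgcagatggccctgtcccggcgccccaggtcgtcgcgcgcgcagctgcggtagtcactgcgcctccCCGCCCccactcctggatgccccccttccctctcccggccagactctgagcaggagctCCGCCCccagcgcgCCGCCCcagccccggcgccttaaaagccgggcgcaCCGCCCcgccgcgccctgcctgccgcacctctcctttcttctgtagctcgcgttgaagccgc

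Each of the 3 windows held 4 GC boxes, whereas VIM's held 1, and 45.0% of the 35116 windows in the RefSeq table held at least 1. The E-box was found once in SYNM, in no window of NES, INA or VIM, and in 20.6% of all windows. The windows of SYNM and INA were rich in the dinucleotide CG, with 43 and 35 copies against a median of 14 over all windows, and NES, at 14, and VIM, at 10, were not. The RefSeq start of SYNM lies inside the gene's span in the deposited table, downstream of its first base, so a start at that first base is outside the window. A match describes the letters and not binding.

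VIM was the most abundant of the 8 genes in both groups, and its level was lower under the overexpression label. It stood at 31.1, 33.3 and 32.7 FPKM in the overexpression-labelled libraries, against 49.6, 47.3 and 53.7 FPKM in the control-labelled ones. The highest overexpression-labelled library lay below the lowest control-labelled one. The mean was 32.4 ± 1.2 FPKM under the overexpression label and 50.2 ± 3.2 FPKM under the control label (SD, n = 3 each), 1.55-fold lower. On the log2(FPKM + 1) scale the difference was -0.62 ± 0.062 (SE), at a limma adjusted p of 1.05e-04. The value rested on 8947 reads under the overexpression label and 12925 under the control label. A difference of at least this size past the threshold was common, at 49.4% of tested genes. VIM stood above 94.1% of 19951 protein-coding genes under the overexpression label and above 96.2% under the control label.

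VIM-AS1, an antisense RNA that starts in the first part of VIM and runs the other way, shares 641 exon bases with it. It stood at 1.57, 1.75 and 1.83 FPKM in the overexpression-labelled libraries, against 0.462, 0.178 and 0.510 FPKM in the control-labelled ones. It was thus 4.47-fold higher where VIM was lower (0.98 ± 0.12 on the log2 scale, SE, limma adjusted p of 2.68e-04). VIM-AS1 averaged 1.05 FPKM over the 6 libraries and reached the filter of 1 FPKM through the overexpression-labelled ones alone. It therefore had to differ, and its values are a description. Whether the counting used strand is not given in the sources used here, so reads in the shared bases cannot be told apart, but the 183 and 38 reads given to VIM-AS1 were few beside those of VIM.

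DES, the filament gene of muscle, was expressed at a low level and did not pass the threshold. It stood at 1.82, 2.00 and 1.20 FPKM in the overexpression-labelled libraries, against 1.17, 1.03 and 1.14 FPKM in the control-labelled ones. The groups did not overlap, but overexpression-labelled replicate 3 lay just above the control-labelled values. The mean was 1.67 ± 0.42 FPKM under the overexpression label and 1.11 ± 0.072 FPKM under the control label (SD, n = 3 each), on 221 and 137 reads. The difference on the log2 scale was 0.33 ± 0.13 (SE) and missed the threshold (limma adjusted p of 0.0518). Without overexpression-labelled replicate 3 it was 0.46 and passed (limma adjusted p of 5.55e-03), and with voom on the reads it was 0.66 and passed (limma adjusted p of 0.0324). With quantile normalization it was 0.16 and did not pass (limma adjusted p of 0.32), nor did it without overexpression-labelled replicate 2, at 0.24 (limma adjusted p of 0.156).

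NES, which encodes nestin, was the member that was higher under the overexpression label and past the threshold. It stood at 26.9, 26.5 and 25.9 FPKM in the overexpression-labelled libraries, against 4.61, 4.87 and 3.60 FPKM in the control-labelled ones. The 3 overexpression-labelled libraries agreed closely and all lay far above the others. NES averaged 26.5 ± 0.54 FPKM under the overexpression label, from 7875 reads, and 4.36 ± 0.67 FPKM under the control label, from 1210 reads (SD, n = 3 each). That is 6.06-fold higher, or 2.36 ± 0.097 (SE) on the log2 scale, at a limma adjusted p of 1.42e-06. Of the tested genes, 7.11% passed with a difference of at least this size in either direction. NES stood above 92.2% of protein-coding genes under the overexpression label and above 62.6% under the control label. VIM was 1.15 to 1.26 times NES in the overexpression-labelled libraries, against 9.71 to 14.9 times in the control-labelled ones. With principal transcript lengths in place of the table's, VIM was 2.79 to 3.06 times NES under the overexpression label and 23.5 to 35.99 times under the control label.

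SYNM, which encodes synemin, was lower under the overexpression label. It stood at 1.78, 1.85 and 1.92 FPKM in the overexpression-labelled libraries, against 11.3, 9.28 and 18.4 FPKM in the control-labelled ones. No value overlapped, but the control-labelled libraries were spread widely, replicate 3 standing well above the other two. SYNM averaged 1.85 ± 0.067 FPKM under the overexpression label, from 775 reads, and 12.98 ± 4.8 FPKM under the control label, from 5066 reads (SD, n = 3 each). That is 7.01-fold lower, or -2.24 ± 0.22 (SE) on the log2 scale, at a limma adjusted p of 9.48e-05. Without control-labelled replicate 3 the difference was -1.98 (limma adjusted p of 7.47e-06). A difference of this size or larger passed in 8.02% of tested genes. SYNM shares 2027 exon bases with the antisense RNA gene AC036108.2, which had 11 reads under the overexpression label and 5 under the control label.

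INA, which encodes alpha-internexin, was detected under the control label only. It had 0 reads in each of the 3 overexpression-labelled libraries, against 235, 236 and 343 reads in the control-labelled ones, which is 4.46, 4.33 and 6.34 FPKM. It was thus not detectable at this depth in any overexpression-labelled library, and the control-labelled level of 5.04 ± 1.1 FPKM (SD, n = 3) lay above that of 65.0% of protein-coding genes. Had the overexpression-labelled libraries held 3 reads in all, the difference would be 291-fold, so INA was at least 291-fold lower there. On the log2(FPKM + 1) scale it was -2.58 ± 0.13 (SE) at a limma adjusted p of 4.18e-06, a value that depends on the added 1. Differences this large past the threshold made up 5.9% of tested genes. No annotated gene overlaps INA.

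The neurofilament triplet was at or near 0 in both groups. NEFH, the heavy subunit, had 9, 4 and 4 reads in the overexpression-labelled libraries, against 2, 0 and 1 in the control-labelled ones. Its level was at most 0.135 FPKM in any library, and its summed reads of 17 and 3 gave a ratio of 5.24 with a 95% counting interval of 1.53 to 28.1, which covers counting error only. NEFL, the light subunit on which the triplet is built, had 1 read in overexpression-labelled replicate 2 and 0 in the other libraries. NEFM, the medium subunit, had 0 reads in all 6, which allows a level of up to 0.0128 FPKM under the overexpression label and 0.0137 FPKM under the control label (3 reads over each group). INA, which joins the triplet in neurons, was therefore expressed in the control-labelled libraries without detectable NEFL or NEFM mRNA at this depth.

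**Figure D1:**
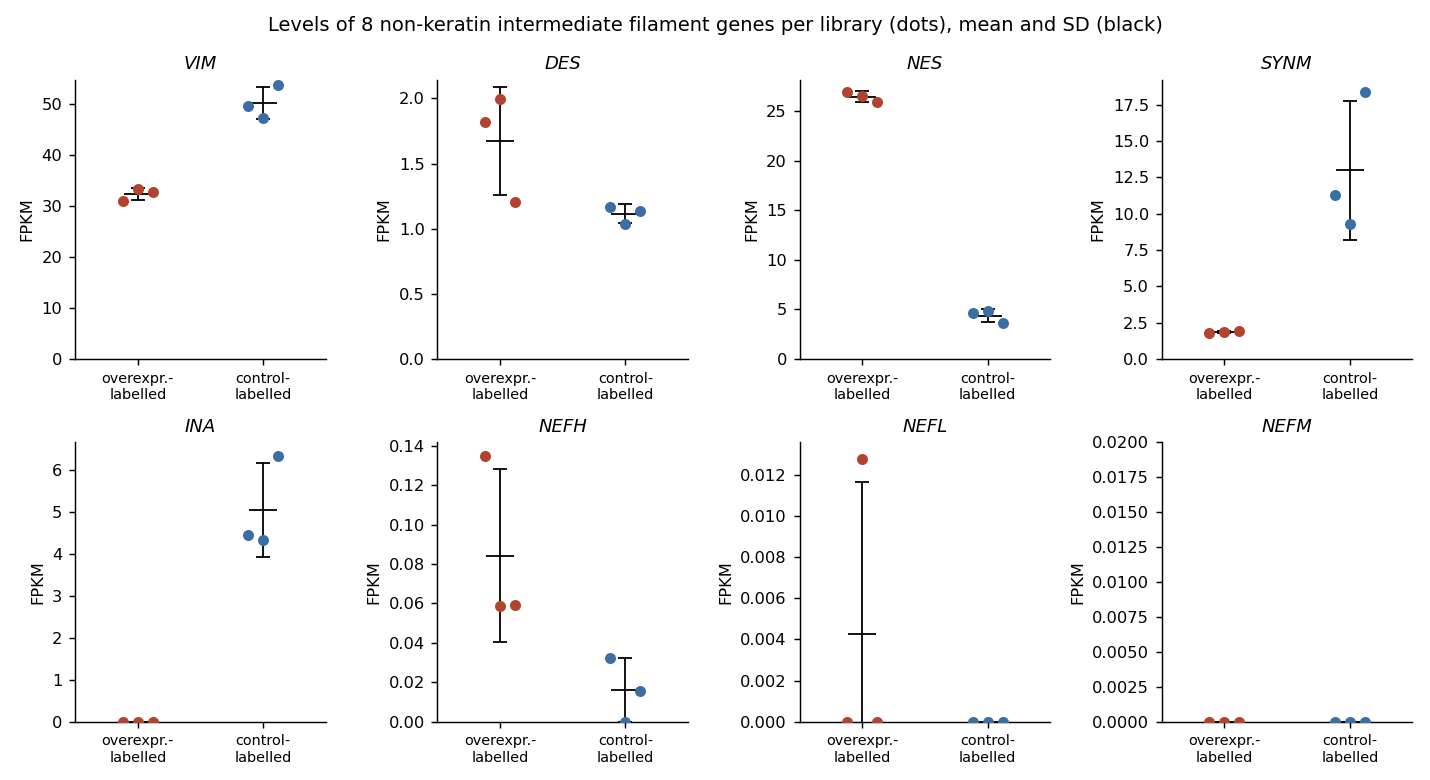
Level in FPKM (y axis, from 0, a scale of its own in each panel) of the 8 filament genes in the 3 overexpression-labelled (left, red) and 3 control-labelled (right, blue) libraries. Dots are libraries and black lines the mean and SD, the bar of NEFL being clipped at 0. NES is 25.9 to 26.9 FPKM in the overexpression-labelled libraries, VIM, SYNM and INA are higher in the control-labelled ones, and the neurofilament panels hold at most 0.135 FPKM.

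Among the 5 tested members, 1 was higher, 3 were lower and 1 did not pass, against 76.8% of all tested genes past the threshold. Their median log2 fold change was -0.62, that of all tested genes -0.03. With no filter on low values, 7 members were tested and 4 passed, against 44.5% of 33913 genes. INA passed the filter through the control-labelled libraries alone and had to differ, and NEFH, NEFL and NEFM did not pass it. The count is therefore a description. In the overexpression-labelled libraries the order of levels was VIM, NES, then SYNM and DES, whose values overlapped, then NEFH and NEFL. In the control-labelled libraries it was VIM, SYNM, then INA and NES, whose values overlapped, then DES and NEFH.

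The make-up of the filament mRNA differed between the groups in every library, and the sum differed less firmly. The 8 genes together measured 62.4 ± 1.1 FPKM in overexpression-labelled and 73.7 ± 8.4 FPKM in control-labelled libraries (SD, n = 3 each). The groups did not overlap, at 61.8 to 63.8 against 66.8 to 83.1 FPKM, and the highest sum was that of control-labelled replicate 3. The difference of -11.3 FPKM became -6.57 FPKM without that library and -6.18 FPKM when FPKM was rebuilt from read totals. As reads, the sums of 5802 to 6123 under the overexpression label and 6080 to 7762 under the control label overlapped. VIM took 50.3% to 53.0% of the sum under the overexpression label and 64.5% to 70.8% under the control label. NES took 41.6% to 43.6% under the overexpression label, against 4.33% to 7.29% under the control label. SYNM took 2.89% to 3.10% under the overexpression label and 13.9% to 22.1% under the control label. INA took 0% under the overexpression label and 6.27% to 7.63% under the control label. The second largest share was that of NES in each overexpression-labelled library and that of SYNM in each control-labelled library.

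These shares depend on the length used for each gene. The table's lengths equal the union of all annotated exons for 8 of the 8 genes, which for VIM is 5158 bases and 2.42 times its principal transcript of 2135 bases, but 1.00 to 1.10 times for the other 7. Rescaled to the principal transcript, a setting chosen after seeing the data, VIM took 70.8% to 73.0% of the sum in overexpression-labelled and 80.9% to 85.02% in control-labelled libraries. NES then took 23.9% to 25.4% under the overexpression label, against 2.25% to 3.62% under the control label. The ratio of a gene's mean FPKM between groups is not touched by its length. Its log2 difference is, through the added 1, and so is its passing of the filter.

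**Figure D2:**
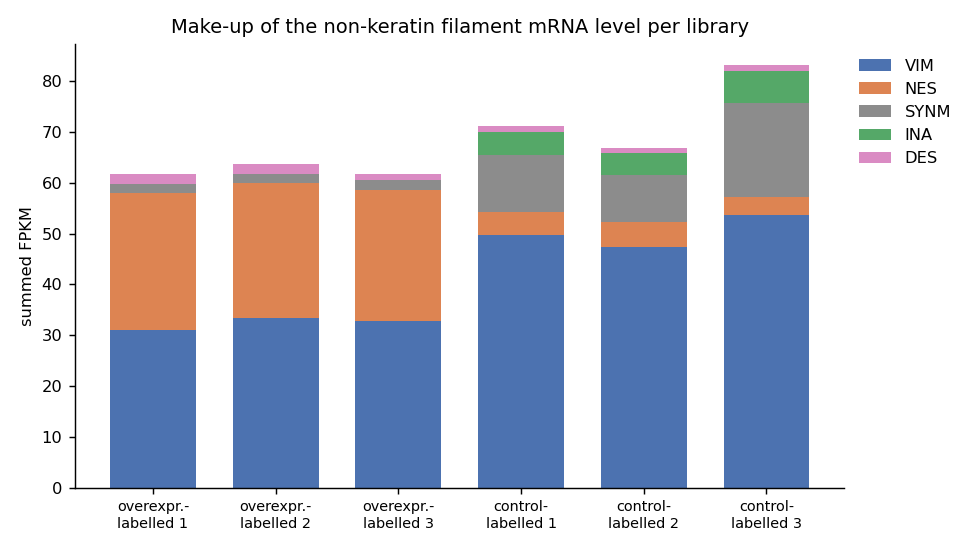
Summed FPKM (y axis, from 0) of VIM, NES, SYNM, INA and DES in each library, overexpression-labelled at left and control-labelled at right. Each bar is a library and each colour a gene. NES fills 41.6% to 43.6% of the bars at left, and SYNM and INA together fill the upper part of the bars at right, the tallest being control-labelled replicate 3 at 83.1 FPKM.

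The balance of vimentin to simple epithelial keratins was compared through KRT8 and KRT18, the type II and type I pair of simple epithelia. KRT8 measured 681 ± 9.4 FPKM in overexpression-labelled and 179 ± 9.3 FPKM in control-labelled libraries, 3.80-fold higher, and KRT18 609.5 ± 3.7 FPKM against 202 ± 31 FPKM, 3.02-fold higher (SD, n = 3 each). Per 100 FPKM of KRT8 and KRT18 together, VIM stood at 2.39, 2.59 and 2.55 in the overexpression-labelled libraries, against 13.6, 13.4 and 12.6 in the control-labelled ones. The ratio did not overlap between groups, and the keratin pair exceeded vimentin in all 6 libraries. Both keratins have processed pseudogenes that could share reads with them, so these levels are uncertain to that extent. The spans of KRT8 and KRT18 also overlap on opposite strands, and whether the counting used strand is not given. The values per 100 depend on the length used for each gene, as the shares do. Of the 5 tested genes of the simple keratin list, 3 were higher and 2 lower under the overexpression label, with a median of 1.60. Among all tested genes, 37.5% were higher and 39.3% lower. KRT19 measured 494.6 to 509 FPKM under the overexpression label and 0.127 to 0.499 FPKM under the control label, where 19 of its 29 reads were in replicate 1. KRT19 reached the filter through the overexpression-labelled libraries alone. KRT7 was 59.4-fold lower, at 1.38 ± 0.24 FPKM under the overexpression label and 81.8 ± 10.0 FPKM under the control label.

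**Figure D3:**
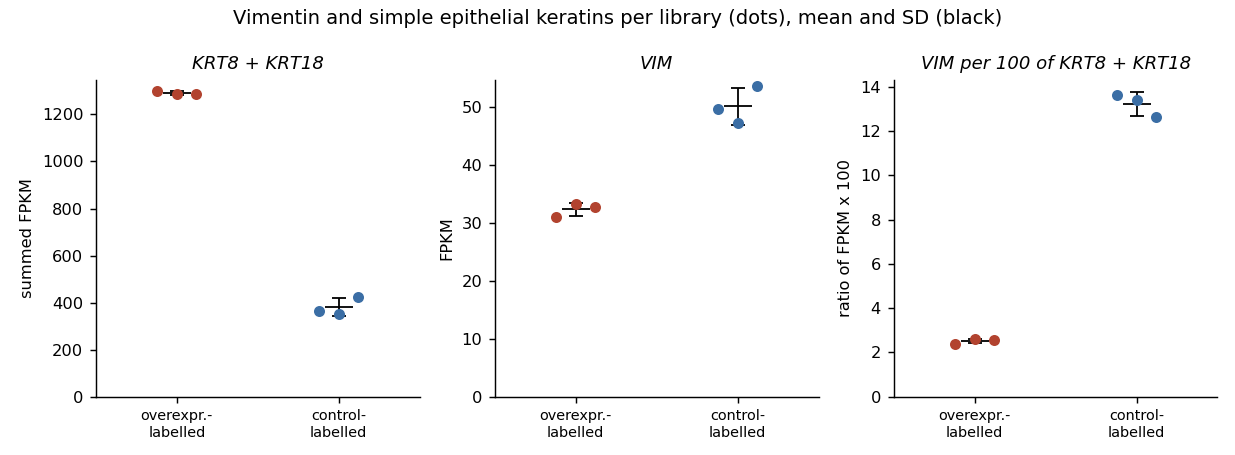
Summed FPKM of KRT8 and KRT18, FPKM of VIM, and VIM per 100 FPKM of the keratin pair (y axes, from 0) in overexpression-labelled (left, red) and control-labelled (right, blue) libraries. Dots are libraries, black lines the mean and SD. The ratio is 2.39 to 2.59 under the overexpression label and 12.6 to 13.6 under the control label.

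The other intermediate filament genes also changed in both directions. Of 12 listed, 7 were tested, 3 higher, 2 lower and 2 not past the threshold, with a median of 0.39. The threshold was passed by 76.8% of all tested genes. LMNTD2 reached the filter through the overexpression-labelled and SYNC through the control-labelled libraries alone. SYNC, which encodes syncoilin, a filament protein of muscle that binds desmin, measured 0.325, 0.318 and 0.225 FPKM under the overexpression label, against 3.57, 4.60 and 2.76 FPKM under the control label. It was 12.6-fold lower (-1.83 ± 0.15 on the log2 scale, SE, limma adjusted p of 3.64e-05), like SYNM in direction. The nuclear lamin genes LMNB2 and LMNA were 1.59-fold and 1.32-fold higher, and LMNTD2, which encodes a protein with a lamin tail domain, was 5.53-fold higher. LMNB1 measured 47.3 ± 0.73 FPKM against 32.6 ± 13.4 FPKM and did not pass (limma adjusted p = 0.0921). GFAP and PRPH, the type III genes of glia and of peripheral neurons, were below 1 FPKM in all libraries, with 20 and 52 reads under the overexpression label against 2 and 95 under the control label.

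Genes whose products bind filaments or turn them over were 7 higher, 6 lower and 1 not past the threshold of 14 tested, with a median of 0.17. Over all tested genes, 37.5% were higher and 39.3% lower. EPPK1 and HSPB8 reached the filter through the control-labelled libraries alone. HSPB8, a small heat shock protein gene, was 376-fold lower, with 7 reads against 2453. EPPK1, the gene of the keratin and vimentin linker epiplakin, was 18.6-fold lower, at 0.655 ± 0.076 FPKM against 12.2 ± 1.2 FPKM. TRIM2, the gene of a ubiquitin ligase known in mouse to bind the neurofilament light subunit, was 13.0-fold higher, at 15.4 ± 0.28 FPKM against 1.19 ± 0.34 FPKM. PLEC, the gene of the general linker plectin, was 1.94-fold higher. HSPB1, another small heat shock protein gene, measured 168 to 172 FPKM under the overexpression label, against 302, 240.0 and 779 FPKM under the control label. BAG3, a co-chaperone gene, measured 11.3 to 12.6 FPKM under the overexpression label, against 45.2, 30.7 and 115 FPKM under the control label. Control-labelled replicate 3, the highest for both, was also the highest for VIM, SYNM and INA and the lowest for NES. Without it these 4 members still passed, at -0.57 for VIM, -1.98 for SYNM, -2.43 for INA and 2.26 for NES on the log2 scale.

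Enzymes that phosphorylate or dephosphorylate filaments were 8 higher, 5 lower and 4 not past of 17 tested, with a median of 0.05. Of all tested genes, 76.8% passed, so the count is near the background. PRKCE, a kinase gene among the 5 lower, reached the filter through the control-labelled libraries alone and had to differ. CAMK2D and PAK1, kinases known to act on vimentin, were 2.93-fold and 2.88-fold lower. PPP1CA, a catalytic subunit of protein phosphatase 1, was 2.84-fold higher, at 103 ± 1.4 FPKM against 36.3 ± 6.7 FPKM. CDK1, the mitotic kinase of vimentin and nestin, was 2.07-fold lower.

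A list of 18 factors held those known to act on vimentin, nestin, desmin or neuronal genes, or to mark the epithelial state. Of the 18, 11 were tested, of which 8 were lower, 1 higher and 2 not past. Their median was -1.63 against -0.03 for all tested genes, 39.3% of which were lower. TWIST1, ZEB1 and SNAI2 reached the filter through the control-labelled libraries alone and ESRP1 through the overexpression-labelled ones alone, so that the count and the median are descriptions. TWIST1, a mesenchymal transcription factor, had 0 reads under the overexpression label and 666 under the control label, at least 238-fold lower. ZEB1, a repressor of epithelial genes, measured 0.590, 0.672 and 0.802 FPKM under the overexpression label, against 9.16, 8.21 and 10.3 FPKM under the control label, 13.4-fold lower (-2.60 ± 0.097 on the log2 scale, SE, limma adjusted p of 9.49e-07). SRF, which drives muscle filament and actin genes, was 3.84-fold lower. The gene that was higher was ESRP1, an epithelial splicing regulator, with 3986 reads against 5. REST, the repressor of neuronal genes, measured 7.47 ± 0.18 FPKM in overexpression-labelled and 8.05 ± 0.84 FPKM in control-labelled libraries and did not pass (limma adjusted p = 0.314).

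Markers of the cell types that these filament genes are named for gave no uniform direction. Of 16 neuronal markers, 5 were tested, 3 higher and 2 lower under the overexpression label, against 37.5% and 39.3% of all tested genes. The summed level of the 16 was 67.0 to 68.2 FPKM in overexpression-labelled and 68.2 to 76.5 FPKM in control-labelled libraries. SYT1, a synaptic vesicle calcium sensor gene, was 57.8-fold higher, UCHL1 78.8-fold higher (95% counting interval 27.0 to 389.6, from 3 control-labelled reads) and ENO2 1.68-fold higher. The 2 lower ones were L1CAM, at 35.7 ± 0.35 FPKM against 57.7 ± 6.8 FPKM (1.62-fold), and SNAP25 (2.57-fold). L1CAM and ENO2 made up most of the summed level in both groups. Of the 5, SYT1 and UCHL1 reached the filter through the overexpression-labelled and SNAP25 through the control-labelled libraries alone. DCX and STMN2, defining genes of young neurons, had 0 reads in all 6 libraries. Of the other untested markers, NCAM1 had 1114 reads under the overexpression label against 10 under the control label, SYP 291 against 66 and TUBB3 118 against 55. MAP2 went the other way, with 3 against 240. So did RBFOX3, with 11 against 111, of which 80 were in control-labelled replicate 3. GAP43, ELAVL3, ELAVL4 and CHGA had at most 14 reads in a group. Of 9 markers of neural progenitors and glia, the cells for which nestin is best known, 3 were tested: MSI1 was higher, with 355 reads against 1, PAX6 was 4.60-fold higher, and SLC1A3 was 1.88-fold lower. The summed level of the 9 was 5.47 to 6.33 FPKM in overexpression-labelled and 2.13 to 2.97 FPKM in control-labelled libraries. Of the untested ones, SOX1 had 96 reads under the overexpression label and 0 under the control label, PROM1 3 against 18 and OLIG2 2 against 0. FABP7, S100B and AQP4 had 0 reads in all. MSI1 and PAX6 reached the filter through the overexpression-labelled libraries alone.

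Of 19 muscle and stromal markers, 5 were tested, 2 higher, 1 lower and 2 not past, where 76.8% of all tested genes passed. ACTA2, smooth muscle actin, was 14.0-fold and TNNT1, a troponin gene, 5.26-fold higher, while COL1A1, a collagen gene of fibroblasts, was 4.01-fold lower. The summed level was 54.5 to 57.2 FPKM in overexpression-labelled and 31.5 to 41.9 FPKM in control-labelled libraries. The muscle factor MYOG and the fibroblast receptor PDGFRA had 0 reads in all 6. Of the untested fibroblast markers, PDGFRB had 77 reads under the overexpression label and 504 under the control label. DCN had 0 against 80, COL3A1 0 against 28, THY1 0 against 20 and FAP 0 against 11. LUM went the other way, with 29 against 1, and COL1A2 had 3 against 3. Of 11 endothelial and leukocyte markers, ESAM alone was tested and was 64.2-fold lower, with a summed list level of 1.55 to 1.87 FPKM in overexpression-labelled and 36.1 to 51.0 FPKM in control-labelled libraries, of which ESAM made up 35.6 to 50.4 FPKM under the control label. KDR, CD3D and MS4A1 had 0 reads in all 6. ACTA2 reached the filter through the overexpression-labelled and ESAM through the control-labelled libraries alone. The part of these markers in the filament differences was not tested.

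**Figure D4:**
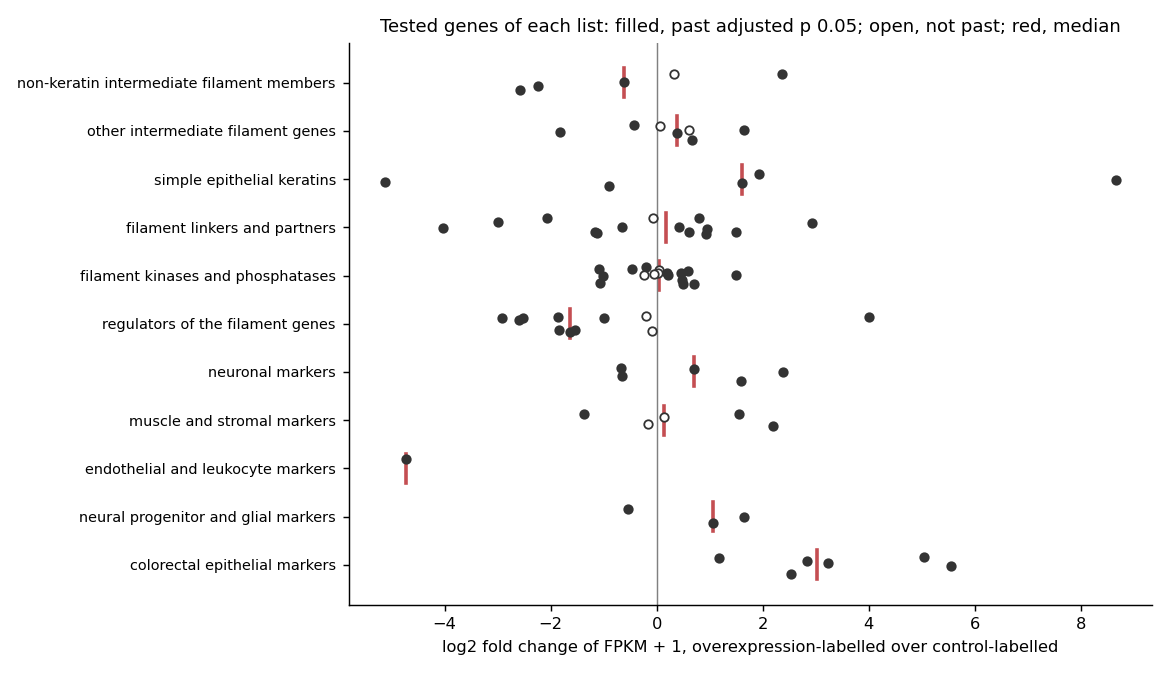
Log2 fold change of FPKM + 1, overexpression-labelled over control-labelled (x axis), of the tested genes of each list. Each dot is a gene, filled where it passed an adjusted p of 0.05, and the red line is the median. The list of regulators, which includes markers of the epithelial state, has a median of -1.63 and the colorectal epithelial markers one of 3.03. The 5 tested filament genes lie on both sides of 0.

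Among the protein-coding genes whose levels lay closest to those of VIM over the 6 libraries were RPL22 and ATP5PB, by the root mean square difference of log2(FPKM + 1). RPL22, a ribosomal protein gene, differed from VIM by 0.058 and measured 32.4 ± 0.57 FPKM in overexpression-labelled and 49.1 ± 2.6 FPKM in control-labelled libraries. For INA, the tested member other than VIM with the largest absolute log2 fold change, the closest were DAPK1 (0.045), TMTC1 (0.086) and FOXN1 (0.099). DAPK1 was listed at 0 in the overexpression-labelled libraries and at 5.28 ± 1.04 FPKM in the control-labelled ones, which is the pattern of INA. The measure joins level and difference and says nothing of shared control.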

How the data were processed

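The authors deposited FPKM for each gene in each library, plus gene lengths. That the values are FPKM follows from the table's title and the values. The build in the submitters' processing notes is mm10, which is mouse, whereas identifiers and coordinates are human, and the lengths of 8 of 8 members equal the exon unions of GENCODE release 29 on GRCh38. The sources used here do not name an aligner or counter. Whole reads were recovered by taking the least non-zero product of FPKM and length in a library as 1 read. With a tolerance of 0.001, 100% of values were whole. The authors' denominator was 0.958 to 1.05 times the read sum.

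Since the unit is FPKM, limma 3.58.1 (R 4.3.3) was run on log2(FPKM + 1) with a trended prior variance and group as its single term. Genes averaging 1 FPKM or more over the 6 libraries were tested, two-sided, and p-values were adjusted over all of them by Benjamini-Hochberg. The fit was tested on simulated data in which few genes differed and both groups were equally variable. The real data are unlike that in both respects, so the simulation does not show how the fit behaves here. This scale understates changes of low genes. Folds are ratios of mean FPKM. For a group without reads, a floor of 3 reads over that group gives a lower bound. A group with 1 to 3 reads has an exact 95% interval. These cover counting error alone, since amplified reads are not independent molecules. An exact permutation test of 3 against 3 cannot go below 0.1, so none is given. Pseudocount, filter, scaling, variance model, gene set, replicate block and left-out libraries were varied. The members and 10 gene lists were chosen with earlier results of these data known. Named were the members, the genes overlapping them, their nearest genes, and per list the 3 genes past the threshold with the largest absolute log2 fold change. KRT18 was named for the keratin ratio. CDX1, CDX2, CLDN7, CEACAM5, CEACAM6, LMNA, LMNB1, GFAP, PRPH, PLEC, HSPB1 and BAG3 were chosen after their values were seen. So were CDK1, AURKB, PLK1, CDK5, CDK5R1, SRF, REST, VIL1, SNAI2, SNAP25, L1CAM, PRKCE, the markers at 0 and the other untested markers. Protein sequences were not used here, and some genes that the rule names are not reported here. Columns with values of samples from elsewhere numbered 0.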

Additional observations from a re-analysis of the deposited data

How the results depend on the processing

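Alternatives changed the pseudocount, the filter, the scaling, the variance model, the value type, the genes tested and the libraries. Over them VIM, NES, SYNM and DDX39B kept direction and call in every fit that held them. INA did as well, but it passed the filter through the control-labelled libraries alone and had to differ in the filtered fits. VIM ranged from -0.66 to -0.50, NES from 2.26 to 2.72 and SYNM from -2.69 to -1.98. INA ranged from -9.06 with voom on reads to -2.43, the spread being set by how a count of 0 enters the log, and had no value with a mean filter of 5 FPKM, nor had DES. DES passed once FPKM was rebuilt from each library's read total (0.39, adjusted p = 0.0283), without the mean-variance trend (0.33, 0.0443), with array weights (0.30, 0.0118), with voom (0.66, 0.0324) and among protein-coding genes alone (0.33, 0.0304). Leaving out a library gave DES 0.24 to 0.46, and over all its alternatives the limma adjusted p ranged from 5.55e-03 to 0.32. The count of members past the threshold was 3 to 5, and the 63 list genes past it became 39 with a mean filter of 5 FPKM, which tests fewer genes. The neuronal list had 9 members past the threshold with no filter (6 higher, 3 lower). The summed level differed by -11.3 FPKM, by -40.1 after TPM scaling, whose unit is larger, by -37.1 with principal transcript lengths, by -6.18 with read totals, and by -14.7 to -6.57 with a library left out. It differed by -6.57 without control-labelled replicate 3. The share of VIM differed by -16.5 percentage points, and by -11.4 with principal transcript lengths. Same-numbered libraries showed no shared deviation (correlations across genes of -0.022 to 0.0075). Whether they shared a culture or a preparation is not given in the sources used here. With the replicate block 4 members passed, as without it, and 10506 genes in place of 10726. Voom moved the median of all genes by 0.10. Depth limits NEFH, NEFL and NEFM, which had at most 9 reads in a library.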
